A study of Mus musculus with 8 samples.

Results

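The early response to SOX7 was read from 4 of the 8 samples of the series, chosen by their titles: 2 samples of haematopoietic precursors kept for 12 h with doxycycline and 2 kept for 12 h without it. Each sample was hybridised to its own Affymetrix array, which gave log2 expression values for 16348 probe sets. The cells were iSOX7, a derivative of the mouse embryonic stem cell line Ainv18 that switches on a SOX7 transgene when doxycycline is added. In all groups the cells had passed through FLK1+ precursors and 3 days of liquid blast culture with VEGF and IL6, and had been sorted as CD41+/CD34- before the 12 h began. The remaining 4 samples, 2 with and 2 without doxycycline, were taken at 24 h. All groups carried the transgene, and no cells without it were analysed here, so an action of doxycycline itself and the action of SOX7 cannot be told apart. Whether the 2 samples of a group were separate cultures is not given, so each p-value reflects sample-to-sample spread that may be no more than technical.

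SOX7 belongs with SOX17 and SOX18 to the SoxF family, whose members bind DNA through an HMG box and bend it. In the embryo, blood arises from endothelium that turns off its vessel program as it turns on the blood program, and SoxF factors are known for their part in that endothelium and in arterial fate. CD41, the integrin subunit encoded by Itga2b, marks the first committed blood precursors of such cultures. Adding a SoxF factor to cells that have already reached this stage asks which genes respond when an endothelial regulator is present in blood precursors.

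The induced gene was high in both treated samples. Sox7 read 10.96 and 10.82 with doxycycline at 12 h, against 7.17 and 6.82 without it. The difference was 3.89 ± 0.16 on the log2 scale (SE, 2 samples in each group here and below), or 14.9-fold, with an adjusted p of 0.000387. Changes in the text are log2 differences, with doxycycline minus without, ± SE from limma fitted over all 8 arrays, and the adjusted p is from limma with the Benjamini-Hochberg method over all probe sets. A probe set is called where that p lies under 0.05. The probe set cannot separate transgene from endogenous transcripts. The family members did not pass: Sox17 read 6.16 and 6.24 against 6.02 and 5.85 (adjusted p = 0.847), and Sox18 read 8.64 and 7.99 against 8.55 and 7.88 (adjusted p = 0.995).

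The labelled cell type was set against a list of marker genes. Itga2b read 10.14 and 9.27 with doxycycline and 10.55 and 10.27 without it (-0.71 ± 0.37, adjusted p = 0.711). Runx1, the master regulator of blood emergence, read 9.99 and 9.48 against 10.11 and 9.88 (adjusted p = 0.895). The probe set of Cd34, whose protein the sort was to exclude, read 10.15 and 9.18 against 10.57 and 9.62 (adjusted p = 0.939). No background level is known for these arrays, so a single level does not show whether a transcript was present. Of the 13 genes listed, which include Cd34 and the endothelial genes Kdr, Cdh5 and Tek, 0 passed at 12 h. Of all probe sets 0.924% passed, so 0 in a list of this size says little. The list is mixed, so this does not show that the stage was unchanged. In a limma fit with the replicate number as a block, which called 1.72% of all probe sets higher and 1.14% lower, Cdh5 rose and Gata1 fell. The list of smooth muscle and mesenchyme genes followed the replicate number rather than the treatment: the mean over 21 genes was 6.66 and 7.42 in replicates 1 and 2 with doxycycline, against 6.72 and 7.56 without it. Cardiac genes (11 measured) averaged 5.84 and 6.17 against 5.82 and 6.15, and endoderm genes (10 measured) 5.54 and 5.98 against 5.40 and 5.69. None of the members of these 3 lists passed, which with a share of 0.924% over all probe sets says little. Under the block 1 smooth muscle and mesenchyme gene fell and 0 rose, and 0 cardiac or endoderm genes were called.

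In all, 151 probe sets were called at 12 h (0.924% of those tested), 97 higher (0.593%) and 54 lower (0.33%). At an unadjusted p under 0.05 the count was 1446. The response was larger upwards: among the called probe sets the rises had a median of 1.61 and reached 4.02, and the falls had a median of -1.14 and reached -1.93. At least 4-fold changes were seen in 26 of the called rises and in 0 of the called falls. The median over all probe sets was -0.01. Of the called probe sets, 143 had 1 gene symbol and stand for 91 genes that rose and 51 that fell. Fitting only the 4 arrays of 12 h called 0 probe sets (0%), with 2116 at an unadjusted p under 0.05 and a smallest adjusted p of 0.0695, so every call rests on the spread estimated over all 8 arrays. Samples of the same group correlated at r = 0.991 with doxycycline and at r = 0.991 without it.

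**Figure D1:**
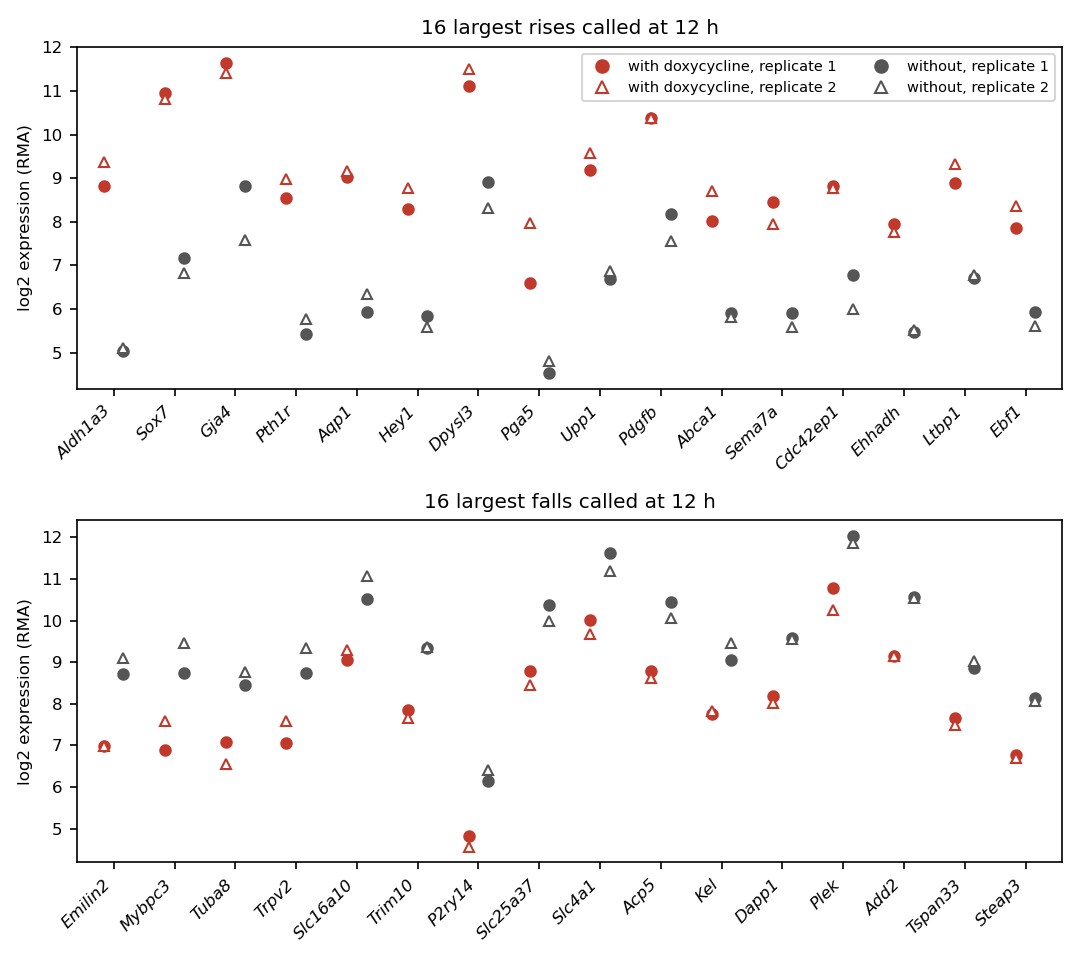
Log2 expression (RMA, vertical axis) of the 16 largest called rises (upper panel) and the 16 largest called falls (lower panel) at 12 h, 1 marker per sample; red with doxycycline, grey without, circles replicate 1, triangles replicate 2. Within each gene the red and grey markers do not overlap, as is likely for genes called on these samples. Pga5 and Gja4 show the widest gaps between samples of 1 group.

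Of 29 growth factors 3 rose and 0 fell, with a list median of 0.04. For this and the list counts below, 0.593% of all probe sets rose and 0.33% fell. With the replicate block 1.72% rose and 1.14% fell. Pdgfb, a growth factor that endothelium uses to recruit mural cells, read 10.38 and 10.38 with doxycycline and 8.19 and 7.55 without it (2.51 ± 0.33, adjusted p = 0.0253). Bmp2, a ligand of the BMP pathway, read 9.97 and 9.73 against 7.53 and 7.65 (2.26 ± 0.21, adjusted p = 0.00831). Edn1, which encodes the vasoconstrictor peptide endothelin, read 7.44 and 7.78 against 6.67 and 6.31 (1.12 ± 0.18, adjusted p = 0.0398). In each of these 3 genes the lower treated sample lay above the higher untreated one, which their being called on these samples made likely. Several secreted proteins outside that list rose too. Ltbp1, which tethers latent TGF-beta to the matrix, read 8.90 and 9.32 against 6.71 and 6.78 (adjusted p = 0.021). Tfpi, the inhibitor of the tissue factor pathway of clotting, read 8.32 and 8.52 against 6.37 and 6.27 (adjusted p = 0.034). Adamts1, a secreted metalloprotease, read 10.01 and 9.67 against 8.19 and 7.82 (adjusted p = 0.0228). Frzb, a secreted Wnt antagonist, was called with unequal samples, 6.34 and 7.31 against 4.71 and 4.46 (adjusted p = 0.0434).

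Of 22 measured genes of the BMP and TGF-beta pathway, 1 rose, Ltbp1, and 0 fell, and the list median was 0.13. With the replicate block 3 rose and 0 fell. Smad1, a transducer of BMP signals that was not in the list, read 8.68 and 8.87 with doxycycline and 7.51 and 7.46 without it (1.29 ± 0.16, adjusted p = 0.0213). Gdf6, another BMP family ligand, read 7.37 and 7.01 against 6.21 and 6.05 (adjusted p = 0.0363).

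Vasoactive and hormone receptors moved in both directions. Pth1r, the receptor for parathyroid hormone, read 8.54 and 8.98 with doxycycline and 5.43 and 5.77 without it (3.16 ± 0.22, 8.94-fold, adjusted p = 0.00364). P2ry14, a receptor for nucleotide sugars, read 4.82 and 4.57 against 6.15 and 6.41 and fell (adjusted p = 0.0165). Of 41 vasoactive ligands and receptors 2 rose and 1 fell, with a median of 0.16, where 0.593% of all probe sets rose and 0.33% fell. With the replicate block 6 rose and 2 fell, where 1.72% and 1.14% of all probe sets did. Ece1, which cleaves the endothelin precursor, read 9.30 and 9.64 against 7.93 and 8.51 and did not pass without the block (1.25 ± 0.23, adjusted p = 0.0625) but did with it (adjusted p = 0.0108).

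Some Notch genes rose, a ligand and a receptor among them. Jag2, a ligand, read 9.23 and 8.74 with doxycycline and 7.28 and 6.74 without it (adjusted p = 0.0312). Notch1, a receptor, read 8.80 and 8.72 against 7.73 and 7.42 (1.18 ± 0.18, adjusted p = 0.0346). The target genes Hey1 and Hey2 encode repressors that carry the Notch signal in endothelium. Hey1 read 8.29 and 8.77 against 5.84 and 5.59 (2.81 ± 0.23, adjusted p = 0.00664), and Hey2 read 6.68 and 6.82 against 5.81 and 5.75 (0.97 ± 0.16, adjusted p = 0.0459). Other members of the list did not pass: Hes1 differed by -0.255, Heyl by 0.02 and Nrarp by 0.25. Dll4, the arterial ligand, read 6.66 and 6.52 against 5.44 and 4.85 and missed the threshold without the block (1.44 ± 0.25, adjusted p = 0.052) and passed with it (adjusted p = 0.0111). Of 18 Notch genes 4 rose and 0 fell, with a median of 0.33, and 6 rose with the block. Values lay above 0 in 13 members of that Notch list and below 0 in 5. Of 12 arterial genes, which share Hey2 and Dll4 with that list, 3 rose (Gja4, Efnb2 and Hey2) and the median was 0.56, with 5 that rose under the block. Gja4, a connexin of arterial gap junctions, read 11.65 and 11.40 against 8.81 and 7.59, and its 2 untreated samples lay further apart than those of any other called probe set (adjusted p = 0.0387).

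Endothelial surface and junction genes lay above the median of all probe sets without passing. Of 40 measured members 34 had a value above 0, and in 25 both treated samples exceeded both untreated ones, which 21.7% of all probe sets did. None of the 40 was called, and the list median was 0.72. Cdh5, the cadherin of endothelial junctions, read 11.46 and 11.22 against 10.23 and 9.35 (1.55 ± 0.38, adjusted p = 0.162). Ptprb, an endothelial phosphatase, read 9.66 and 9.48 against 7.81 and 6.92 (2.21 ± 0.39, adjusted p = 0.0594). The untreated samples differed from each other by more than the treated samples in these genes, and the list mean was 8.20 and 7.89 with doxycycline, against 7.65 and 7.10 without it. In the limma fit blocked on replicate number, 11 of the 40 rose and 0 fell, where 1.72% of all probe sets rose and 1.14% fell. Cdh5 and Ptprb were among the 11 (adjusted p = 0.0223 and 0.00923 with the block). In these bulk samples a higher share of a cell type and more of its RNA per cell cannot be told apart, nor, for the falls below, fewer cells and less RNA per cell.

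Among guidance genes 4 of 57 rose and 0 fell, with a median of 0.12. With the replicate block 6 rose and 1 fell. Sema7a, a membrane-anchored semaphorin, read 8.46 and 7.96 with doxycycline and 5.92 and 5.59 without it (2.46 ± 0.20, adjusted p = 0.00664). Sema6a, a transmembrane semaphorin, read 8.86 and 9.00 against 7.36 and 6.75 (adjusted p = 0.0395). Dpysl3, a cytosolic mediator of semaphorin signals, read 11.12 and 11.51 against 8.92 and 8.31 (2.70 ± 0.30, adjusted p = 0.0143). Efnb2, the arterial ephrin ligand, read 8.54 and 8.81 against 6.88 and 7.16 (adjusted p = 0.0208). In each of these 4 genes the treated samples lay above the untreated ones, which their being called on these samples made likely. Among the largest rises outside the lists, Cdc42ep1, a CDC42 effector, read 8.83 and 8.77 against 6.79 and 6.01 (2.40 ± 0.28, adjusted p = 0.0176). The beta-tubulin gene Tubb2b read 10.10 and 10.31 against 8.18 and 8.30 (1.96 ± 0.18, adjusted p = 0.00833).

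Of 15 basement membrane genes the paired collagen chains Col4a1 and Col4a2 rose, to 9.61 and 9.92 against 8.64 and 8.66, and to 9.27 and 9.59 against 8.46 and 8.32 (adjusted p = 0.0363 and 0.046). Over the 15 genes the median difference was 0.25, and 4 rose with the replicate block. Among 33 other matrix genes Ltbp1 rose and Emilin2 fell. Emilin2, a glycoprotein of elastic fibres, had the largest fall of all called genes, at 6.99 and 6.98 with doxycycline and 8.72 and 9.10 without it (-1.93 ± 0.17, adjusted p = 0.00831). Cavin1, a coat protein of caveolae, rose as the 1 called member of 8 caveola genes, at 10.45 and 10.49 against 7.85 and 8.85 (adjusted p = 0.0317).

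Several transcription and RNA regulators rose. Ets1, an ETS factor active in endothelium, read 10.21 and 10.44 with doxycycline and 8.66 and 8.51 without it (adjusted p = 0.0241). It was the 1 called gene of 16 ETS factors, whose median was 0.14, and 3 rose with the block. Ebf1, best known as a B cell factor, read 7.85 and 8.37 against 5.94 and 5.61 (2.33 ± 0.27, adjusted p = 0.0163). Hhex, a homeobox factor of blood and endothelial precursors, read 9.14 and 9.58 against 7.65 and 7.62 (adjusted p = 0.0228). Lin28a, an RNA-binding protein of embryonic cells that blocks let-7 processing, read 9.90 and 10.19 against 8.10 and 8.50 (adjusted p = 0.0124). Hlx, a homeobox gene, read 8.33 and 8.15 against 6.86 and 7.06 (adjusted p = 0.0488). Sall4, a zinc finger factor of embryonic stem cells, had 2 probe sets, which rose by 1.30 ± 0.19 and 1.06 ± 0.16 (adjusted p = 0.0317 and 0.034). Plagl1, an imprinted zinc finger gene, read 7.31 and 7.77 against 5.67 and 4.99 (adjusted p = 0.0265). Sox13, a member of another SOX subgroup, rose to 7.45 and 7.60 against 6.63 and 6.46 (0.98 ± 0.15, adjusted p = 0.0387). Among 28 blood regulators 3 rose (Ebf1, Hhex and Lin28a) and Klf1 fell, with a median of -0.13.

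The DNA just upstream of these genes was read for letters that SOX and ETS factors are known to prefer. Several called rises hold such letters, and the promoters of 3 are shown as examples. They were not picked by size alone: Atp7a, which rose by 1.71 and holds ETS letters, is not shown. Capitals mark the SOX letters ACAATG or AACAAT on either strand in Lin28a and Dusp6, and the ETS letters CAGGAAG in Hhex. Each run is the 250 bases before the gene start, 5′ to 3′ on the gene's strand, from RefSeq on GRCm38.p6. Lin28a lies on the minus strand at chr4:134018817-134019066, with its match starting 96 bases before the gene start. Dusp6 lies on the plus strand at chr10:99262981-99263230, with its match at 116 bases, and Hhex on the plus strand at chr19:37434591-37434840, with its match at 98 bases.
Lin28a: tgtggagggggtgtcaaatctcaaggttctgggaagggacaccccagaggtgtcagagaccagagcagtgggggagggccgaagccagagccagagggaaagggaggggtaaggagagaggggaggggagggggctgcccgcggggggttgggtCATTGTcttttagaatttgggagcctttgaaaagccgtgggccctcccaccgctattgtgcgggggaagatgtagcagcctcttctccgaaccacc
Dusp6: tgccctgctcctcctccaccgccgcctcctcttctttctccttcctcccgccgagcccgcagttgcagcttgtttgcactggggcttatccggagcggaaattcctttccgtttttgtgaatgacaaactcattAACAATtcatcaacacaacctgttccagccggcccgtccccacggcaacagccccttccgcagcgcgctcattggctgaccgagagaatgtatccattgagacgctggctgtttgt
Hhex: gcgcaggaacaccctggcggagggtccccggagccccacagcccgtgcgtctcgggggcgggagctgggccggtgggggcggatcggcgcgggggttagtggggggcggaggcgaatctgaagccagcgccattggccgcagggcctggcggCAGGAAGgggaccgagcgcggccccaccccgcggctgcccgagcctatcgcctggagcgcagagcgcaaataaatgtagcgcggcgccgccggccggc
Of the 91 genes that rose, 53 had a single promoter in the table, and 6 of these (11.3%) held ACAATG or AACAAT, which overlap in 5 letters, against 12.9% of 9560 single promoters of measured genes. Of 30 such promoters of genes that fell, 4 held them (13.3%). The ETS letters CCGGAAG or CAGGAAG stood in 3 of the 53 (5.66%) and in 2 of the 30 (6.67%), against 18.9% of the 9560. These shares are counts of letters in a short window, and distal elements were not read.

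Enzymes and carriers of small molecules held some of the largest changes. Aldh1a3, which oxidises retinaldehyde to retinoic acid, had the largest rise at 12 h, at 8.83 and 9.37 with doxycycline and 5.04 and 5.11 without it (4.02 ± 0.19, 16.3-fold, adjusted p = 0.000483). The related Aldh1a1 read 6.57 and 6.49 against 4.77 and 4.57 (1.86 ± 0.17, adjusted p = 0.00831). These were the 2 members that rose of 13 retinoid genes, with a median of 0.21. Among the other called enzymes, Ehhadh, of peroxisomal fatty acid oxidation, read 7.96 and 7.77 against 5.47 and 5.51 (2.38 ± 0.14, adjusted p = 0.00195). Upp1, which splits uridine, read 9.19 and 9.58 against 6.69 and 6.87 (2.60 ± 0.27, adjusted p = 0.0118), the only called gene of 25 in nucleotide metabolism. Glul, the glutamine synthetase, read 10.92 and 11.21 against 9.39 and 9.30 (adjusted p = 0.00831). Lipa, the lysosomal acid lipase that frees cholesterol, and Abca1, which exports it from the cell, also rose. Lipa read 9.98 and 10.14 against 8.30 and 7.89 (adjusted p = 0.0133), and Abca1 read 8.01 and 8.71 against 5.90 and 5.82 (2.50 ± 0.23, adjusted p = 0.00833).

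Of 36 channels and carriers 3 rose and 5 fell at 12 h, with a median of -0.11. The water channel Aqp1 read 9.02 and 9.17 with doxycycline and 5.93 and 6.34 without it (2.96 ± 0.21, adjusted p = 0.00364). Clic6, of the chloride intracellular channel family, read 10.54 and 10.64 against 8.35 and 8.58 (2.12 ± 0.16, adjusted p = 0.00581). Slc18a2, which loads amines into vesicles, was the third rise, at 10.15 and 10.39 against 8.60 and 8.50 (adjusted p = 0.0143). A second aquaporin outside the list, Aqp11, read 7.41 and 7.46 against 5.52 and 4.85 (adjusted p = 0.0118). The falls were in Trpv2, Slc16a10, Slc25a37, Kcnn4 and Atp2b4. Kcnn4, the calcium-activated potassium channel of red cells, read 7.65 and 7.60 against 8.96 and 8.98 (-1.35 ± 0.13, adjusted p = 0.0101). Slc16a10, a carrier of aromatic amino acids, read 9.05 and 9.30 against 10.52 and 11.08 (adjusted p = 0.0312).

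The red cell list held more called falls than any other list. All 20 measured genes of red cell membrane and maturation had a value below 0, 7 of them fell and 0 rose, and the median was -1.06. With the replicate block 14 fell and 0 rose. In 19 of the 20 both treated samples lay below both untreated ones, which 22.3% of all probe sets did. Slc4a1, the anion exchanger that anchors the membrane skeleton, read 10.02 and 9.67 with doxycycline and 11.63 and 11.18 without it (-1.56 ± 0.22, adjusted p = 0.0292). Add2, a skeletal protein that caps actin, read 9.14 and 9.14 against 10.57 and 10.53 (-1.41 ± 0.13, adjusted p = 0.00831). Tspan33, a tetraspanin of erythroid precursors, read 7.66 and 7.48 against 8.86 and 9.02 (adjusted p = 0.015). Trim10, which erythroid cells need for terminal maturation, read 7.86 and 7.67 against 9.35 and 9.37 (adjusted p = 0.0103). Epor, the erythropoietin receptor, read 8.98 and 8.84 against 10.11 and 9.97 (-1.13 ± 0.15, adjusted p = 0.0277).

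Several steps of heme synthesis and iron supply fell. Of 19 measured genes, 5 fell and 0 rose, with a median of -0.64. With the replicate block 7 fell and 0 rose. Uros, a mid-pathway synthase, read 8.28 and 8.32 with doxycycline and 9.24 and 9.40 without it (-1.02 ± 0.16, adjusted p = 0.0398). Cpox, which acts later in the pathway, read 10.80 and 10.55 against 12.01 and 11.96 (-1.31 ± 0.15, adjusted p = 0.0143). Slc25a37, which brings iron into mitochondria, read 8.79 and 8.44 against 10.38 and 9.99, and Abcb10, its mitochondrial partner, read 9.91 and 9.88 against 10.99 and 10.84 (adjusted p = 0.0363 and 0.0305). Steap3, the ferrireductase of endosomes, read 6.76 and 6.71 against 8.13 and 8.07 (adjusted p = 0.0208). Slc6a9, a glycine carrier outside the list, fell to 9.08 and 9.11 against 10.12 and 9.91 (-0.92 ± 0.15, adjusted p = 0.0398). Alas2, the erythroid rate-limiting enzyme, differed by -0.14 (adjusted p = 0.972). Of the globin genes of the embryo, Hba-x and Hbb-y, at 13.27 and 13.12 against 13.54 and 13.42 and at 13.77 and 13.54 against 13.72 and 13.40, did not pass (adjusted p = 0.673 and 0.983).

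Klf1 was the 1 blood regulator that fell of the 28 measured, and with the replicate block 4 fell and 5 rose. Klf1, the erythroid master factor, read 8.75 and 8.53 with doxycycline and 9.98 and 9.65 without it (-1.18 ± 0.18, adjusted p = 0.0361). Gata1 read 10.18 and 9.67 against 11.03 and 10.61 and did not pass without the block (adjusted p = 0.221), and Myb read 8.38 and 8.43 against 9.17 and 9.58 and lay just outside the threshold (adjusted p = 0.0511, and 0.0183 with the block). Of 23 cytokine receptors Epor and Csf2rb fell and 0 rose, against 4 and 1 with the block. Csf2rb, the shared beta chain of myeloid cytokine receptors, read 11.33 and 11.37 against 12.21 and 12.47 (adjusted p = 0.0312). Cish, a feedback inhibitor that such receptors induce through STAT5, read 8.75 and 8.66 against 9.63 and 9.63 (-0.93 ± 0.13, adjusted p = 0.0292). Ccnd2, a D-type cyclin, read 11.14 and 10.78 against 12.02 and 11.95 (-1.03 ± 0.16, adjusted p = 0.0387). Dapp1, an adaptor downstream of PI3-kinase, read 8.18 and 8.03 against 9.57 and 9.55 (adjusted p = 0.0292). Plek, a platelet kinase substrate, was the 1 called fall of 15 megakaryocyte genes, at 10.78 and 10.25 against 12.03 and 11.85 (adjusted p = 0.0447). Their list mean was 8.28 and 7.48 with doxycycline and 8.78 and 7.97 without it, lower in replicate 2 in each group. Of 26 myeloid genes Acp5 and Csf2rb fell and 0 rose, against 4 and 1 with the block, and the list median was -0.30.

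**Figure D2:**
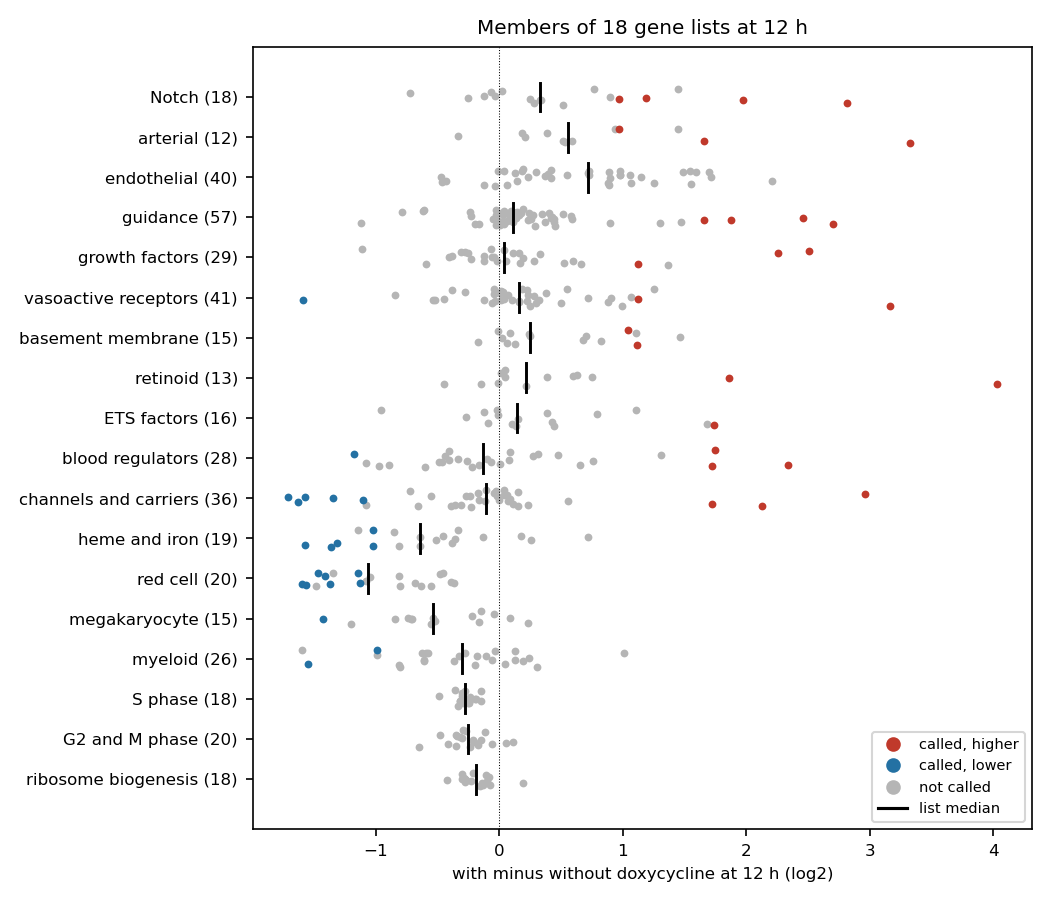
Log2 difference at 12 h, with minus without doxycycline (horizontal axis), for each measured member of 18 gene lists (rows, with the number measured); red members rose, blue members fell, grey members were not called, and black bars mark list medians. The red cell list lies wholly below 0 with a median of -1.06, and the endothelial list has a median of 0.72 with 0 called members.

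Growth genes lay slightly below 0 without any call. All 18 S phase genes, 18 of 20 G2 and M phase genes and 17 of 18 ribosome biogenesis genes had values below 0. The list medians were -0.28, -0.25 and -0.18, against -0.01 over all probe sets, and genes are not independent replicates. None of these members passed, with or without the replicate block. In the remaining lists few members passed. Dusp6, the phosphatase that limits ERK signalling, rose to 9.47 and 9.86 against 8.02 and 8.12 (1.59 ± 0.22, adjusted p = 0.0277) and Phlda1 fell, the 2 calls among 29 ERK feedback and early response genes. Ndrg1 rose as the only call of 25 hypoxia and glycolysis genes. Nqo1 fell as the only call of 11 NRF2 targets, and Gadd45a fell as the only call of 19 p53 targets. Slc18a2, Ebf1 and Lin28a, named above, were the only calls among 14 mast cell, 11 lymphoid and 13 pluripotency genes. The 8 venous and lymphatic, 25 KLF and flow, and 14 stress response genes had 0 called members, as had 2 globins. Under the block 1 venous or lymphatic gene rose and 1 fell, 1 KLF and flow gene rose, and 1 stress response gene fell. It called 3 rises and 2 falls among ERK genes, and 2 and 3 among hypoxia and glycolysis genes. Among NRF2 targets it called 0 rises and 2 falls, and among p53 targets 1 and 2.

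Same-numbered samples were also compared as pairs. Across all 16348 probe sets the difference within replicate 1 correlated with that within replicate 2 at r = 0.563, a description over genes, which are not independent replicates, and 65.4% had the same sign in both. All 151 called probe sets had the same sign in both pairs, which their being called on these same samples made likely, so it adds no separate support. The rises were a little larger in replicate 2, with medians of 1.55 in replicate 1 and 1.65 in replicate 2, and the larger difference was in replicate 2 for 68 of the 97. The falls had medians of -1.09 and -1.18, and were deeper in replicate 2 for 35 of the 54. Only 3 called probe sets differed by more than 1 log2 unit between the pairs: Plagl1, Pga5 and Frzb. Pga5, a pepsinogen, rose by 2.06 in replicate 1 and by 3.18 in replicate 2.

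Over all probe sets the 2 differences deviated from each other with an SD of 0.368, against 0.542 when the untreated samples were exchanged between the pairs. With the replicate block, fitted over the 8 arrays, 467 probe sets were called (2.86%), 281 higher and 186 lower. They included all 151 of the fit without the block. A further 316 were called only with the block. Fli1, an ETS factor of blood and endothelium, read 11.66 and 11.44 with doxycycline and 10.41 and 9.33 without it (adjusted p = 0.0208 with the block and 0.221 without). Lifr, the receptor for leukaemia inhibitory factor, read 10.65 and 10.11 against 9.00 and 8.43 (adjusted p = 0.00396 with the block and 0.0556 without). Gpm6a read 8.77 and 8.24 against 6.37 and 5.03, the largest rise called only with the block. Cldn13, a claudin of mouse erythroid cells, read 6.28 and 6.70 against 8.27 and 8.75 (adjusted p = 0.0053 with the block and 0.085 without), the largest fall of that kind. Gata1 and Elk3 also passed with the block (adjusted p = 0.0136 and 0.0127).

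**Figure D3:**
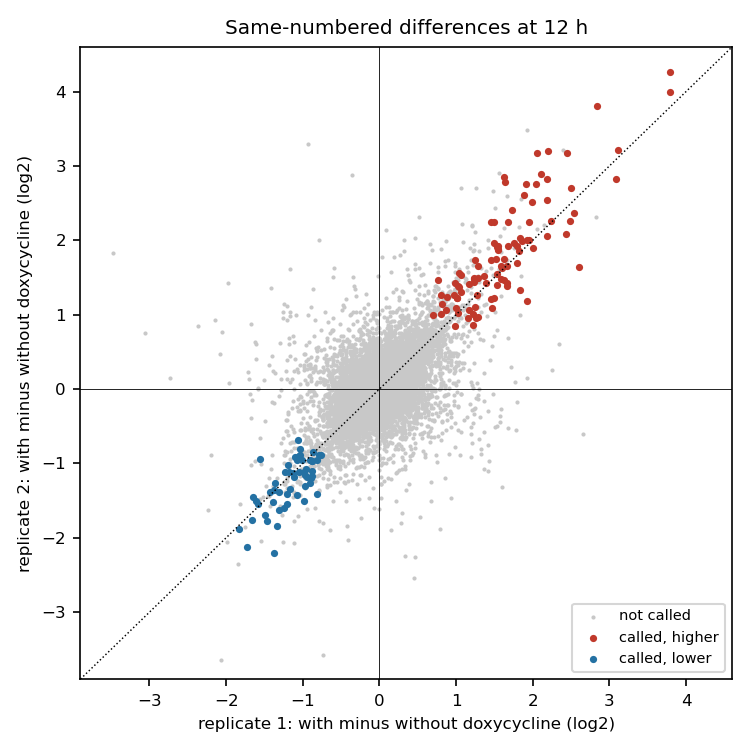
Difference with minus without doxycycline at 12 h within replicate 1 (horizontal axis, log2) and within replicate 2 (vertical axis, log2), 1 point per probe set; red called and higher, blue called and lower, grey not called, dotted line equal values. The called points lie at the upper right and lower left, near the dotted line, as is likely for probe sets called on these samples. Grey points spread further from it.

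The 12 h changes were set beside those at 24 h, which come from other arrays but share the estimate of the spread. At 24 h 235 probe sets were called (1.44%). Of the called sets 95 were shared, 61 higher and 34 lower at both times, which is 62.9% of the 12 h calls and 40.4% of the 24 h calls. All 97 rises at 12 h were above 0 at 24 h, and all 54 falls were below 0. The median rise was 1.61 at 12 h and 1.38 at 24 h, a description only, since these probe sets were picked on their 12 h values. The difference between the times was itself tested in limma: 0 of 16348 probe sets passed (0%), 505 had an unadjusted p under 0.05, and the smallest adjusted p was 0.919. With the replicate block 0 passed and 923 had an unadjusted p under 0.05.

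The estimates for single genes are therefore given as values. Upp1 differed by 2.60 ± 0.27 at 12 h and by 0.70 ± 0.27 at 24 h, and Aldh1a1 by 1.86 ± 0.17 and 0.69 ± 0.17. Edn1 differed by 1.12 ± 0.18 at 12 h and by 0.04 ± 0.18 at 24 h. Pth1r and Aldh1a3 were called at both times, at 3.16 ± 0.22 and 1.72 ± 0.22 and at 4.02 ± 0.19 and 2.62 ± 0.19. In the other direction, Aqp1 differed by 2.96 ± 0.21 at 12 h and 3.80 ± 0.21 at 24 h, and Clic6 by 2.12 ± 0.16 and 3.16 ± 0.16. Some genes called at 24 h had small values at 12 h. Fgfr3, a fibroblast growth factor receptor, differed by 0.24 ± 0.15 at 12 h and 1.97 ± 0.15 at 24 h (unadjusted p of the difference = 5.62e-05, adjusted p = 0.919). Gja5, an arterial connexin, differed by 0.53 ± 0.31 and 3.00 ± 0.31. Among the falls, Atp2b4, a calcium pump, differed by -1.11 ± 0.18 at 12 h and -0.13 ± 0.18 at 24 h, and Nqo1 by -1.01 ± 0.14 and -1.85 ± 0.14.

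**Figure D4:**
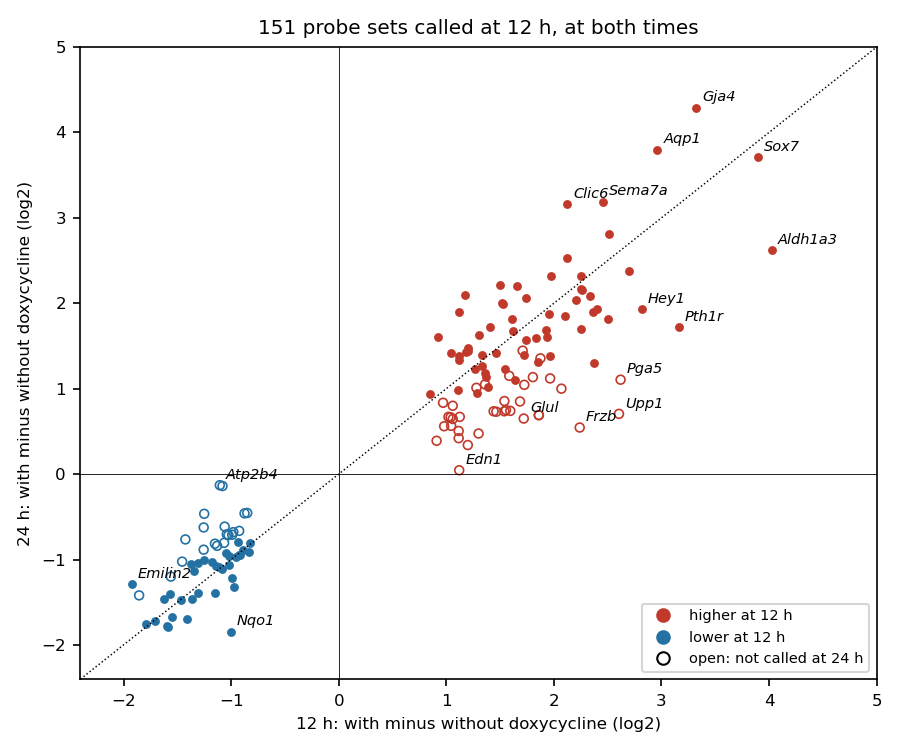
Log2 difference with minus without doxycycline at 12 h (horizontal axis) and at 24 h (vertical axis) for the 151 probe sets called at 12 h; red higher, blue lower, open circles not called at 24 h, dotted line equal values. No point crosses to the opposite sign at 24 h, and Aldh1a3, Pth1r, Upp1 and Edn1 lie below the dotted line.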

How the data were processed

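Total RNA from 8 samples was labelled as biotinylated sense-strand DNA and hybridised to Affymetrix arrays, 1 array per sample. The deposited values are log2 expression per probe set, made by the authors with RMA in Affymetrix Power Tools per the submitters' processing notes; versions, a genome build, filters and detection calls are not given in the sources used here. RMA includes a background step, quantile normalization and a summary over probes, so array-wide shifts are largely removed. Small ones remained: arrays of 12 h had medians from 6.48 to 6.54 and upper quartiles from 8.38 to 8.45. The number of arrays limits the precision.

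Groups and replicate numbers came from the sample titles. Probe sets were named by the platform annotation: 14785 had 1 symbol, 950 several and 613 none, and only the first kind is named. Sox7 and list members were read from the probe set of the highest mean for a gene. Other genes were picked from all probe sets with 1 symbol. Of the 14785, 14740 matched RefSeq by Entrez identifier. The fit was limma 3.58.1 (lmFit, eBayes) in R 4.3.3 on all 8 arrays, with 1 mean per group, residual df of 4 and prior df of 3.44, and Benjamini-Hochberg adjustment over 16348 probe sets.

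Members and 39 gene lists were chosen with earlier results of these data known. Genes named by rule were Sox7, the 30 largest called rises, the 25 largest called falls, up to 5 members per list with the smallest p, those nearest the threshold, and those most different between times, pairs or fits; other called genes were named after their values were seen. Deviations from group means correlated between same-numbered samples (r between 0.298 and 0.428 for every pairing of groups, 0.371 at 12 h). The labels say nothing of a shared culture behind a number, and 1 time holds only 2 pairs, so the blocked fit stands as an alternative. The others were normalization, variance prior, dim probe sets, 1 probe set per gene, array weights, the arrays fitted, and leaving out each array.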

Additional observations from a re-analysis of the deposited data

How the results depend on the processing

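The count of 151 called probe sets at 12 h (97 higher, 54 lower) moved with the setting. It was 241 (157 and 84) after a repeated quantile normalization, 239 (153 and 86) without the dimmest 33.3% of probe sets, 495 (316 and 179) with array quality weights and 467 (281 and 186) with the replicate block. Centring each array on its median left 82 lower. The fit of the 4 arrays of 12 h alone called 0 (0 and 0), and with the replicate block within them also 0. At 24 h the count of 235 was 415, 367, 18 and 677 under the first 4 of these settings. The test of the difference between times called 0 under every setting run, the replicate block among them. Without 1 array, which leaves a lone sample assumed to vary like the others, the 12 h count ran from 7 to 201 (7 to 129 higher, 0 to 72 lower), the 24 h count from 4 to 297 and the count for the difference stayed at 0. The 12 h count was 11 and 7 without the untreated 12 h replicate 1 or 2, 39 and 7 without the treated one, and 47 without either treated 24 h array.

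Of the 143 called probe sets with 1 symbol, 0 changed sign under any setting. Their being called on these same samples made that likely, so it adds no separate support. The block and the loss of a 24 h array leave the 12 h difference itself unchanged. The call was kept by 127 after quantile normalization, 139 after centring and 143 with the block, and Sox7, Ehhadh, Aqp1, Aldh1a3 and Pth1r kept it without each 12 h array in turn. The correlation of the pairs, 0.563, was 0.56 and 0.563 after the renormalizations, 0.602 with 1 probe set per gene and 0.818 without the dimmest probe sets. Among uncalled genes, leaving out single arrays turned the sign of Sox18 (-0.24 to 0.43), Hbb-y (-0.06 to 0.25), Cd34 (-0.91 to 0.06) and Alas2 (-0.3 to 0.03). The causes were not tested.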
